A study of Mus musculus with 6 samples.

Results

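The genes described here are 43 components of T cell receptor signalling, taken by gene symbol from a fixed list and set against all 55401 genes in the count tables. They comprise 4 receptor chains, 11 proximal kinases and adaptors, 12 phosphatases and inhibitors, 5 genes of the calcium and NFAT branch, 5 of the Ras and diacylglycerol branch, 3 of the PI3K branch and 3 of the branch from protein kinase C theta to NF-kB. All 43 had reads in every library (205 to 48310 per gene and library) and all passed the filter on low counts. RNA sequencing was done on mouse CD4+ T cells that had been enriched as naive cells from spleen on magnetic beads and then stimulated through CD3 and CD28 for 24 h. The CKO group (3 libraries) carried floxed Satb1 alleles and a Cre recombinase under Cd4 regulatory sequences, which removes the gene during thymic development in both CD4 and CD8 lineages. The CON group (3 libraries) is labelled WT. The labels leave out age, sex and strain, and say of CON mice neither that they carried Cre nor that they had floxed alleles. The deletion and any effect of Cre or background therefore cannot be told apart. They also do not name the mouse behind each library, so the p-values cover spread between libraries that may be technical.

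The T cell receptor itself has no signalling domain. Its associated CD3 and zeta chains carry tyrosine motifs that the kinase LCK phosphorylates and ZAP-70 then binds. ZAP-70 phosphorylates the adaptors LAT and SLP-76, which gather phospholipase C gamma 1. The products of this enzyme release calcium, which drives NFAT, and provide diacylglycerol, which recruits RASGRP1 to activate Ras and protein kinase C theta to activate NF-kB through BCL10 and MALT1. Phosphatases, ubiquitin ligases and inhibitory receptors such as CD5 set how strongly the same stimulus is passed on. SATB1 is a nuclear protein that organises chromatin in T lineage cells.

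Satb1 was lower in CKO libraries (425, 545 and 461 CPM, reads on the gene scaled to the library's size) than in CON libraries (711, 850 and 726 CPM), with a log2 fold change of -0.68 (SE 0.087, adjusted p = 9.7e-05). Reads outside the deleted exons are counted too, and the completeness of the deletion cannot be read from this value. Libraries held 16621609 to 19023023 gene reads in CKO and 14895389 to 20266626 in CON. Markers of T cells outside the list (Cd2, Thy1, Cd4, Trac, Trbc1, Trbc2 and Cd28) were abundant in every library. Their summed level was 1403 to 1518 CPM in CKO and 2400 to 2510 CPM in CON, with 7 of 7 lower in CKO. The falls differed in size: the CKO mean was 29.8% of the CON mean for Cd4 and 55.8% for Cd28. For the other markers it was 69.0% (Cd2), 74.7% (Trbc2), 79.0% (Trbc1), 84.5% (Thy1) and 87.0% (Trac). In bulk RNA, fewer cells of a type and less RNA per cell cannot be told apart. Markers of other cells were higher in CKO: 7 of 7 red cell genes (summed level 309 to 1859 CPM in CKO, 24.8 to 31.3 CPM in CON), 12 of 12 tested of 14 myeloid genes (89.0 to 224 CPM in CKO, against 28.7 to 37.8 CPM in CON) and 2 of 6 tested of 10 B cell genes (11.6 to 17.1 CPM in CKO, against 6.10 to 11.4 CPM in CON). NK cell genes (1 of 1 tested of 5) summed to 10.7 to 15.1 CPM in CKO and 4.62 to 7.17 CPM in CON, gamma-delta T cell genes (4 of 5) to 19.5 to 25.0 CPM in CKO and 6.73 to 10.9 CPM in CON, and the CD8 genes Cd8a and Cd8b1 (1 of 2) to 22.5 to 29.6 CPM in CKO and 17.5 to 21.3 CPM in CON. Activation markers (5 of 7 higher, 1 lower) summed to 4702 to 4882 CPM in CKO and 4019 to 4275 CPM in CON, and naive T cell markers (4 of 7 lower, 1 higher) to 2002 to 2146 CPM in CKO and 2565 to 2963 CPM in CON. The part of these markers in the results was not tested. No marker on these lists was at 0 in every library of a group.

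Of the 43 members, 20 were lower and 6 higher in CKO at an adjusted p under 0.05, and 17 did not pass the test. Among all 13364 genes tested, 42.3% were called, 20.7% lower and 21.6% higher, while of the members 46.5% were lower and 14.0% higher. The members are abundant genes, and among the 1064 tested genes at or above their median level, 30.0% were lower and 32.5% higher. Most differences were small. The median log2 fold change of the members was -0.13, against 0.0034 over all genes tested, and the range was -1.12 to 0.74. In a test against a fold change of 1.5, 6 members (Themis, Prkcq, Rasgrp1, Dgka, Ptprc and Grap2) were lower and 1 (Ptpn22) was higher, where 7.36% of all tested genes were called, 2.78% lower and 4.57% higher. Levels did not overlap between groups for 21 members lower in CKO and 6 higher in CKO, where 53.4% of all tested genes did not overlap, 26.5% lower and 27.0% higher. The count of higher members was 2 without CKO replicate 3, 3 without CON replicate 2 and 3 without CON replicate 3. Summed over the 43 members, levels were 10243 to 10652 CPM in CKO libraries and 12452 to 12749 CPM in CON libraries, and without Ptprc, the most abundant member by CPM, they were 9027 to 9352 CPM in CKO and 10173 to 10424 CPM in CON.

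**Figure D1:**
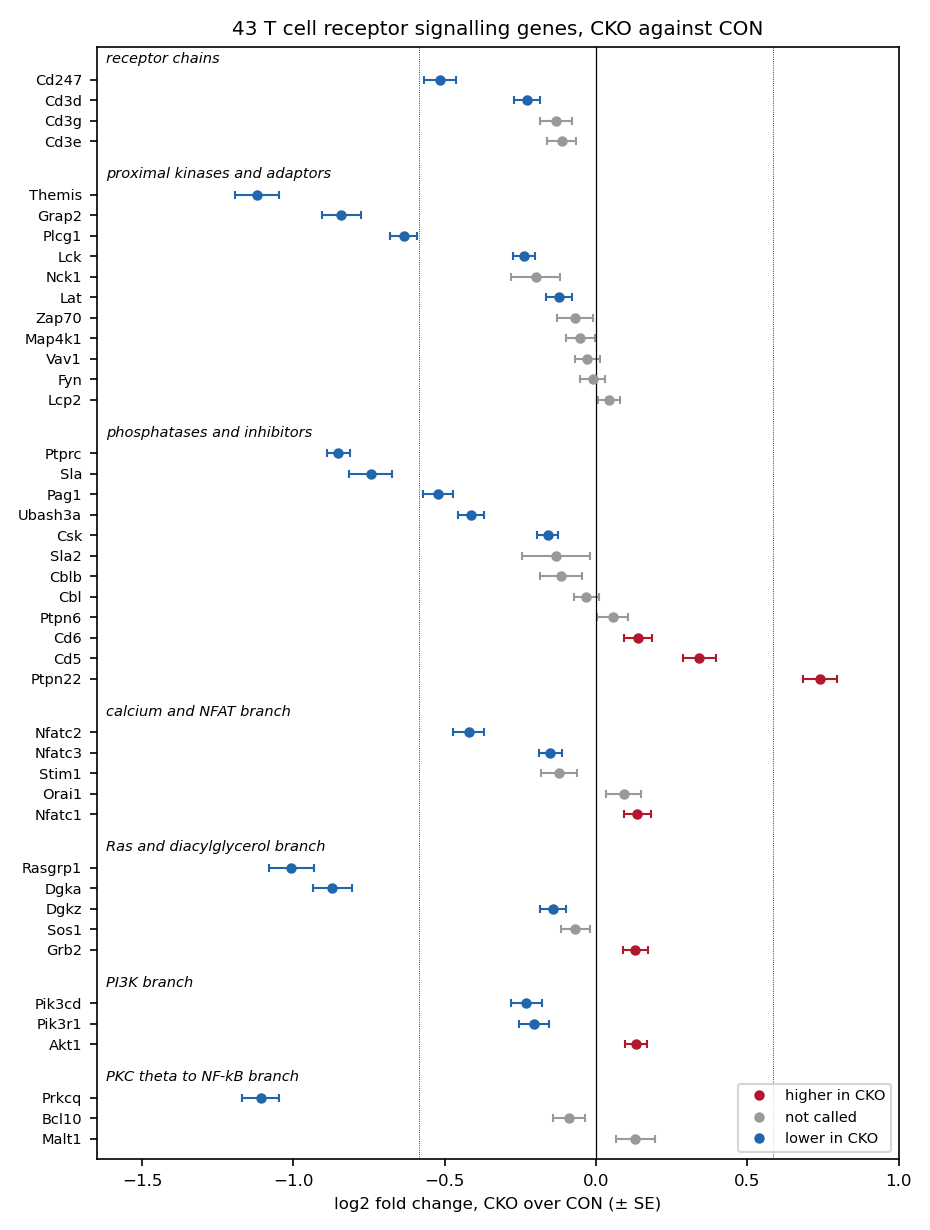
Log2 fold change of each of the 43 members, CKO over CON, with its SE, ordered within role groups; colour marks the call at an adjusted p under 0.05 and dotted lines mark a fold change of 1.5 in either direction. Themis, Prkcq and Rasgrp1 lie farthest to the left, at -1.12, -1.11 and -1.01, and Ptpn22 farthest to the right, at 0.74.

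Promoter sequences are shown for the 3 members with the largest falls and the 2 with the largest rises, so that they can be set side by side. Promoters (250 bases before to 50 after the RefSeq start, GRCm38.p6) were found for 38 of 43 members. Those of Pag1, Sla, Cd6, Nfatc1 and Malt1 were missing from the table. They were searched on both strands for letters of the binding sites of RUNX (TGTGGT), ETS (AGGAAG) and TCF and LEF factors (CTTTGA), all factor families active in T cells. The ETS letters occurred in 21 of 38 member promoters (55.3%) and in 35.4% of all 32851 promoter windows in the table. The RUNX letters occurred in 10.5% of member promoters and 16.8% of all, and the TCF and LEF letters in 18.4% of member promoters and 16% of all. Of the 18 members that fell and have a promoter, 9 held the ETS letters. A match is a description of the sequence, not a measured binding site. The sequences lie with Themis at chr10:28668110-28668409 on the plus strand, Prkcq at chr2:11172132-11172431 on the plus strand, Rasgrp1 at chr2:117342828-117343127 on the minus strand, Ptpn22 at chr3:103859545-103859844 on the plus strand and Cd5 at chr19:10738925-10739224 on the minus strand. Each is printed in the gene's direction, and capitals mark matches to the ETS letters on either strand; none of the 5 holds the RUNX or the TCF and LEF letters. The first 3 fell in CKO and the last 2 rose.
Themis: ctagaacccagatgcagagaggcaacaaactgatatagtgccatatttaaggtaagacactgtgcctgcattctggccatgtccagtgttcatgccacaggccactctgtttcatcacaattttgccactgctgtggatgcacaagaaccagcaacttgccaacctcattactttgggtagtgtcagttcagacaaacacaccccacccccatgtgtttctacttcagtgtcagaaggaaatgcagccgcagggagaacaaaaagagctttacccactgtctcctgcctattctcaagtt
Prkcq: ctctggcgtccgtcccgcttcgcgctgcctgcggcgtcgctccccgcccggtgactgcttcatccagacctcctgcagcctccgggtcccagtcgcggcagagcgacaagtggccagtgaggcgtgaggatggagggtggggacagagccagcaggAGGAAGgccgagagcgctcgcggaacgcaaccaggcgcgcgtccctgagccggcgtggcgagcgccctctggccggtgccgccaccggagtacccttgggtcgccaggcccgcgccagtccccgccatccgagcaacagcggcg
Rasgrp1: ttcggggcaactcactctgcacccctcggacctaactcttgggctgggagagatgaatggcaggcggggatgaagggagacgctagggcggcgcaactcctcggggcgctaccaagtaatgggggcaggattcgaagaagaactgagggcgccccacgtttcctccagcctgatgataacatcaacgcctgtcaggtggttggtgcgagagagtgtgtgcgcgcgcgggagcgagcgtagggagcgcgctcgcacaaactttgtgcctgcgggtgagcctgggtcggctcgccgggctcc
Ptpn22: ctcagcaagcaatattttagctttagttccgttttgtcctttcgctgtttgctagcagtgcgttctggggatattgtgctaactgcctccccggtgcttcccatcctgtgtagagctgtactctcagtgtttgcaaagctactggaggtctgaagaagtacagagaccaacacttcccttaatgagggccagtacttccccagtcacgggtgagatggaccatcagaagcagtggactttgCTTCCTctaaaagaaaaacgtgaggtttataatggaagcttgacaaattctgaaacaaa
Cd5: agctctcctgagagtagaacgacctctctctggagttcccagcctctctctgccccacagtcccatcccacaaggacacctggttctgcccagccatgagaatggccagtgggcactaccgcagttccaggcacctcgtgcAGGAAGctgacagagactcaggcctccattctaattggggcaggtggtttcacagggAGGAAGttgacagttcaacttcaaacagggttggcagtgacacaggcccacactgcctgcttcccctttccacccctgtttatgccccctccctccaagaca
The match in Prkcq starts 94 bases before the RefSeq start, the one in Ptpn22 9 bases before it, and the pair in Cd5 109 and 52 bases before it. Themis and Rasgrp1 hold none in this window. The share of A and T was 52.7% in Themis, 27% in Prkcq, 36.3% in Rasgrp1, 54% in Ptpn22 and 42.7% in Cd5. The start used for Prkcq lies 274 bases and that for Rasgrp1 124 bases from the outermost start in GENCODE.

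Of the 4 receptor chain genes, the zeta chain gene differed most. Cd247, which encodes the zeta chain with its tandem signalling motifs, stood at 135, 132 and 140 CPM in CKO libraries and 180, 203 and 199 CPM in CON libraries. All CKO values lay below all CON values (log2 fold change -0.52, SE 0.052, adjusted p = 1.65e-05). Cd247 shares exon sequence with Pou2f1 on the opposite strand (3103 reads in CKO and 3651 in CON, against 7213 in CKO and 9777 in CON of Cd247), so part of its count is uncertain where strand was not used. Cd3d, encoding CD3 delta, stood at 134, 144 and 139 CPM in CKO and 158, 163 and 168 CPM in CON (log2 fold change -0.23, SE 0.044, adjusted p = 0.00161). Cd3e, encoding CD3 epsilon, which pairs with both delta and gamma, had 151, 139 and 138 CPM in CKO and 147, 157 and 158 CPM in CON. Its groups overlapped, since CKO replicate 1 lay above CON replicate 1, and it did not pass the test (log2 fold change -0.11, adjusted p = 0.0841). Cd3g, encoding CD3 gamma, had 136, 147 and 136 CPM in CKO and 145, 153 and 161 CPM in CON, overlapped and did not pass either (-0.13, adjusted p = 0.0587). Without CON replicate 1 both Cd3e and Cd3g were called lower (adjusted p = 0.0181 and 0.0071), as were Cd3e without CKO replicate 1 and Cd3g without CKO replicate 2. Cd3g was also called lower with upper-quartile scaling, with no filter on low counts, and with immunoglobulin, receptor segment, globin and mitochondrial genes left out. On a scale per exon length (TPM), Cd3d was the highest of the 4, at 262 ± 8.02 in CKO and 314 ± 9.37 in CON (SD, n = 3), and Cd247 stood at 87.3 ± 3.36 in CKO and 128 ± 7.71 in CON. The ratio of Cd247 to Cd3e reads within a library was 0.953 in CKO and 1.26 in CON. The groups did not overlap in this ratio, and the exact two-sided permutation test gave p = 0.1, the smallest value 3 against 3 libraries allow.

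Among the proximal kinases and adaptors, 5 of 11 fell and none rose, and the kinases that start the cascade differed little. Lck, the kinase that phosphorylates the CD3 chains, stood at 371, 380 and 373 CPM in CKO and 451, 430 and 444 CPM in CON (log2 fold change -0.24, SE 0.036, adjusted p = 0.00031). Fyn, the related Src family kinase, had 350 ± 14.6 CPM in CKO and 353 ± 9.36 CPM in CON, with overlapping groups (log2 fold change -0.01, adjusted p = 0.851). Zap70, the most abundant member of this group, had 428, 443 and 465 CPM in CKO and 510, 427 and 463 CPM in CON, with overlapping groups (log2 fold change -0.07, SE 0.059, adjusted p = 0.377). By TPM it was the highest of all 43 members, at 510 ± 23.9 in CKO and 546 ± 51.1 in CON.

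The larger falls in this group were in adaptors and in phospholipase C. Themis, a T cell adaptor that binds GRB2 and the phosphatase SHP-1 and is needed for thymocyte selection, had 31.2, 34.8 and 29.6 CPM in CKO and 73.0, 70.7 and 63.9 CPM in CON. Every CKO library was below every CON library, and the log2 fold change of -1.12 (SE 0.072, adjusted p = 5.41e-07) was the largest fall among the members. Grap2, encoding GADS, the adaptor that links SLP-76 to LAT, stood at 134, 129 and 120 CPM in CKO and 209, 230 and 248 CPM in CON (-0.84, SE 0.064, adjusted p = 1.98e-06). Plcg1, encoding phospholipase C gamma 1, stood at 106, 113 and 107 CPM in CKO and 163, 175 and 169 CPM in CON (-0.64, SE 0.045, adjusted p = 1.09e-06). It did not pass the test against a fold change of 1.5 (adjusted p = 0.41), and it shares exon sequence with Zhx3 on the opposite strand (856 reads in CKO and 1184 in CON, against 5778 in CKO and 8539 in CON of Plcg1). The partners of GADS differed less: Lat fell slightly (-0.12, SE 0.044, adjusted p = 0.0431), a call lost without CKO replicate 2 or 3 or CON replicate 2 or 3. Lcp2, encoding SLP-76, had 391 ± 3.84 CPM in CKO and 379 ± 9.48 CPM in CON and did not pass (adjusted p = 0.357). Vav1, Map4k1 and Nck1 did not pass the test, with log2 fold changes of -0.03, -0.05 and -0.20; Nck1 was called lower without CKO replicate 2, without CON replicate 1 and with no filter on low counts. Vav1 encodes an exchange factor that acts on the cytoskeleton, Map4k1 the kinase HPK1, which dampens signalling through SLP-76, and Nck1 an adaptor to the cytoskeleton.

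**Figure D2:**
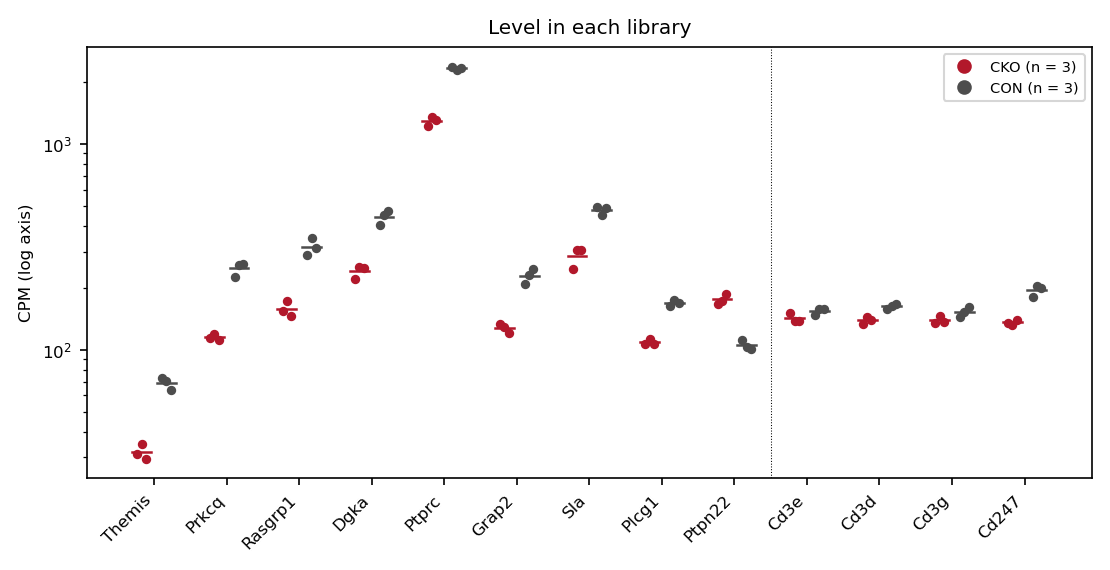
Level in each library, in CPM on a log axis, of the 9 members that were called with a fold change of at least 1.5 (left of the dotted line) and of the 4 receptor chain genes (right); points are libraries, CKO left and CON right of each position, and bars are means of 3. The groups are apart for all 9 genes at left, while those of Cd3e and Cd3g overlap.

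Phosphatases and inhibitors went both ways, with 5 of 12 lower and 3 higher. Ptprc encodes CD45, a transmembrane phosphatase that removes an inhibitory phosphate from LCK, and it was the most abundant member by CPM. It stood at 1216, 1353 and 1300 CPM in CKO and 2375, 2279 and 2325 CPM in CON, so that no CKO library came near the CON range (log2 fold change -0.85, SE 0.039, adjusted p = 4.17e-08). Ptprc is expressed in all nucleated blood cells, and the myeloid markers were higher in CKO libraries, where Ptprc was lower. The part of other cells in its level was not tested. Sla, encoding the adaptor SLAP, which promotes degradation of the receptor complex, stood at 248, 305 and 304 CPM in CKO and 496, 453 and 486 CPM in CON (-0.74, SE 0.072, adjusted p = 1.20e-05). Its relative Sla2 was low, at 14.3 ± 1.41 CPM in CKO and 15.6 ± 1.90 CPM in CON, and did not pass the test. Sla2 shares exon sequence with Rab5if on the opposite strand, which held 2293 reads in CKO and 2096 in CON against 757 in CKO and 792 in CON of Sla2, so its count is uncertain where strand was not used. The transmembrane adaptor gene Pag1, whose product brings the kinase CSK to the membrane, fell (-0.52, SE 0.049), as did Ubash3a, encoding the phosphatase STS-2 (-0.41, SE 0.044). Csk itself, which restrains LCK, fell by 0.16 on the log2 scale (SE 0.035, adjusted p = 0.00333).

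Ptpn22, encoding a phosphatase that acts with CSK to switch off Src family kinases, was the member that rose most. It stood at 166, 173 and 188 CPM in CKO and 111, 103 and 101 CPM in CON, with every CKO library above every CON library (log2 fold change 0.74, SE 0.056, adjusted p = 1.84e-06). The ratio of Ptpn22 to Csk reads was 0.467 in CKO and 0.250 in CON, the largest shift among the 12 ratios of member pairs compared. Ptpn22 is also expressed in myeloid and B cells, whose markers were higher in CKO, and their part in this rise was not tested. The summed myeloid level was 171 CPM in CKO replicate 1, 89.0 CPM in replicate 2 and 224 CPM in replicate 3. Ptpn22 stood at 166, 173 and 188 CPM in the same libraries, and whether these levels go together was not tested. Cd5 and Cd6, inhibitory co-receptors of the scavenger receptor family on T cells, also rose. Cd5 stood at 655, 660 and 689 CPM in CKO and 573, 481 and 528 CPM in CON (0.34, SE 0.055, adjusted p = 5.00e-04). Cd6 stood at 660, 646 and 678 CPM in CKO and 640, 564 and 596 CPM in CON (0.14, SE 0.046, adjusted p = 0.0304), a call lost without CKO replicate 1 or 3 or CON replicate 2 or 3. The remaining inhibitors did not pass the test: Ptpn6, encoding SHP-1 (0.05), and the ubiquitin ligase genes Cbl and Cblb (-0.03 and -0.12, adjusted p = 0.555 and 0.211). Cblb was called lower without CON replicate 1 and with no filter on low counts.

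Of the calcium and NFAT members, Stim1 and Orai1 did not pass the test, while the NFAT genes differed in direction. Stim1, the calcium sensor of the endoplasmic reticulum, had 87.2 ± 3.21 CPM in CKO and 94.8 ± 7.68 CPM in CON, and Orai1, the channel it opens, 103 ± 3.65 CPM in CKO and 96.4 ± 7.49 CPM in CON (adjusted p = 0.126 and 0.235). Nfatc2, encoding NFAT1, stood at 66.2, 69.4 and 70.7 CPM in CKO and 87.2, 94.5 and 94.6 CPM in CON (-0.42, SE 0.051, adjusted p = 6.20e-05). Nfatc3, encoding NFAT4, was slightly lower (-0.15, SE 0.037, adjusted p = 0.00683). Nfatc1, encoding NFAT2, which NFAT itself induces on activation, was the most abundant of the 3, at 319, 311 and 328 CPM in CKO and 305, 278 and 288 CPM in CON (0.14, SE 0.044, adjusted p = 0.0268). This rise was lost without CKO replicate 1 or 3 or CON replicate 2 or 3. Within libraries, the ratio of Nfatc1 to Nfatc2 reads was 4.64 in CKO and 3.15 in CON, with no overlap between groups.

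In the Ras and diacylglycerol branch, both the activator RASGRP1 and the kinase that removes diacylglycerol had lower transcripts. Rasgrp1, encoding the exchange factor that diacylglycerol brings to the membrane to load Ras, stood at 155, 172 and 146 CPM in CKO and 289, 350 and 313 CPM in CON. The groups were far apart, with a log2 fold change of -1.01 (SE 0.074, adjusted p = 1.52e-06). Dgka, encoding diacylglycerol kinase alpha, which ends the diacylglycerol signal, stood at 221, 253 and 251 CPM in CKO and 405, 452 and 471 CPM in CON (-0.87, SE 0.064, adjusted p = 1.60e-06). Dgkz, encoding the zeta isoform, fell much less (-0.14, SE 0.042, adjusted p = 0.0190), and this call was lost without CKO replicate 1 or 2. The ratio of Dgka to Dgkz reads was 0.845 in CKO and 1.40 in CON, without correction for the longer exon sequence of Dgkz. Per exon length, mean Dgka stayed above mean Dgkz in both groups. Dgka stood at 174 TPM in CKO and 325 TPM in CON, and Dgkz at 156 TPM in CKO and 176 TPM in CON. Grb2, the adaptor that brings SOS to LAT, was higher (0.13, SE 0.041, adjusted p = 0.0230), a call lost without CKO replicate 2 or 3, without CON replicate 1 or 2, and with no filter on low counts. Sos1, the Ras exchange factor bound to GRB2, did not pass the test (-0.07, adjusted p = 0.297), although its CKO values lay below its CON values.

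All 3 PI3K genes were called, with small differences. Pik3cd, encoding the p110 delta catalytic subunit, stood at 511, 538 and 539 CPM in CKO and 568, 650 and 645 CPM in CON (-0.23, SE 0.051, adjusted p = 0.0039). Pik3r1, encoding the regulatory subunit p85 alpha, fell by a like amount (-0.20, SE 0.049, adjusted p = 0.00601), and the ratio of both genes, 6.24 in CKO and 6.34 in CON, overlapped between groups. Akt1, the kinase downstream of PI3K, was higher at 257, 258 and 260 CPM in CKO, against 237, 240 and 230 CPM in CON (0.13, SE 0.038, adjusted p = 0.0153). Akt1 lost its call without CKO replicate 2 or 3, without CON replicate 3, and with no filter on low counts.

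In the branch to NF-kB, the first kinase fell and the later components did not pass the test. Prkcq, encoding protein kinase C theta, which diacylglycerol recruits to the contact zone of T cells, stood at 114, 120 and 111 CPM in CKO and 225, 259 and 261 CPM in CON. The CKO mean was 46.3% of the CON mean (log2 fold change -1.11, SE 0.060, adjusted p = 1.54e-07). Bcl10, an adaptor of the complex that protein kinase C theta activates, had 62.8 ± 2.32 CPM in CKO and 66.8 ± 3.47 CPM in CON (adjusted p = 0.21). Malt1, the protease of that complex, stood at 216, 247 and 253 CPM in CKO and 208, 212 and 235 CPM in CON (0.13, SE 0.064, adjusted p = 0.131), with overlapping groups, and was called higher without CKO replicate 1 (adjusted p = 0.0206).

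Of the 14 members made up of the phosphatases and inhibitors with Dgka and Dgkz, 7 were lower and 3 higher, with a median log2 fold change of -0.14. Of the other 29, 13 were lower and 3 higher, with a median of -0.12. The difference between these sets was not tested. Ratios of 12 pairs of members with related roles were also compared within libraries, which removes the scaling of the library. In 9 pairs the groups did not overlap. Among single tested genes 53.4% did not overlap, and the share over all gene pairs was not computed. A pair with a called member also carries that member's own difference. The shifts of the log2 ratio (CKO minus CON) ran from -0.73 for Dgka to Dgkz to 0.90 for Ptpn22 to Csk. Sla to Sla2 shifted by -0.62, Cd247 to Cd3e by -0.40 and Lck to Fyn by -0.23, while Nfatc1 to Nfatc2 shifted by 0.56. The exact permutation p of each of the 9 was 0.1 and, adjusted over 12 pairs, 0.133, so none passed. The pairs Cbl to Cblb, Orai1 to Stim1 and Pik3cd to Pik3r1 overlapped between groups.

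**Figure D3:**
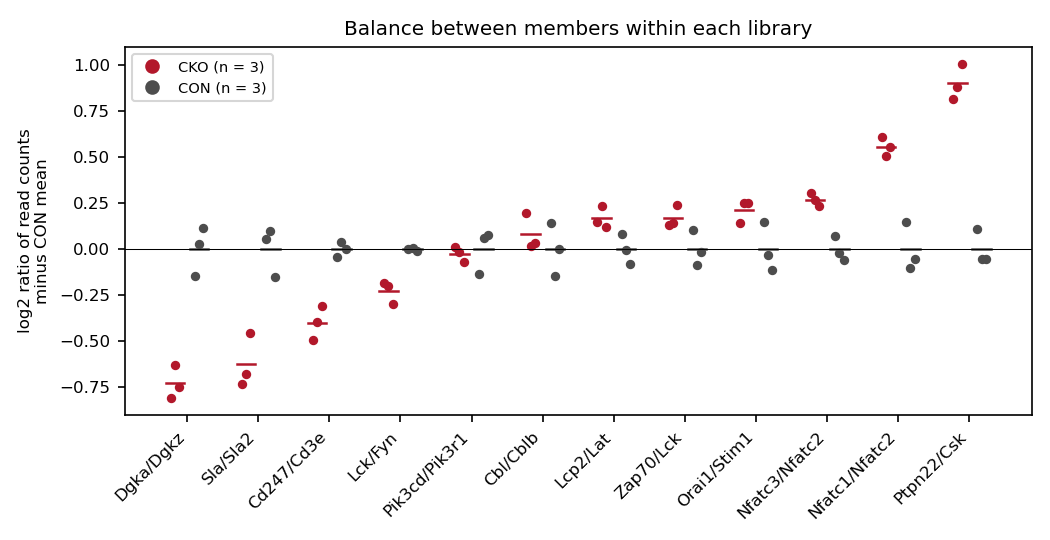
Log2 ratio of read counts of 12 pairs of members in each library, less the CON mean of that pair; points are libraries, CKO left and CON right, and bars are means of 3. Dgka/Dgkz lies lowest in CKO, at -0.73, and Ptpn22/Csk highest, at 0.90.

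The rest of the pathway was read from a list of 84 further genes, all of which were tested. In CKO 30 were lower and 20 higher (35.7% and 23.8%, against 20.7% and 21.6% of all genes tested), and 34 did not pass. Their median log2 fold change was -0.09, and the share of higher genes was near that of all genes tested. Proximal kinases and adaptors on this list fell in 11 of 20 and rose in 1. The 11 include Cd2, Cd4 and Cd28, which encode surface receptors and were already counted among the T cell markers. PI3K genes fell in 6 of 10 and rose in 1. Further phosphatases and inhibitors went the other way, with 7 of 13 higher and 2 lower. The calcium and NFAT genes had 5 of 15 lower and 4 higher, the Ras genes 3 of 16 lower and 4 higher, and the NF-kB branch 3 of 10 in each direction, shares that in such small sets are not read as differing from those of all genes.

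Besides Cd4 and Cd28, the falls of smallest p on that list were in Vav3, Fyb, Inpp4b and Dgkd. Vav3, a relative of Vav1, stood at 12.4, 12.6 and 12.2 CPM in CKO and 39.9, 42.1 and 42.9 CPM in CON (log2 fold change -1.75, SE 0.068). Fyb, encoding ADAP, an adaptor of SLP-76 that acts on integrins, stood at 48.0, 46.7 and 41.5 CPM in CKO and 117, 145 and 140 CPM in CON (-1.56, SE 0.083). Inpp4b, a phosphatase of PI3K products, and Dgkd, another diacylglycerol kinase, had log2 fold changes of -1.15 (SE 0.064) and -0.55 (SE 0.043). Cd4, whose product brings LCK to the receptor, and Cd28 had -1.75 and -0.84. Rises of small p on that list were in Ptprj, Nras, Ubash3b, Pak1 and Orai2. Ptprj, the receptor phosphatase CD148, stood at 21.6, 20.97 and 24.6 CPM in CKO and 7.32, 8.78 and 8.28 CPM in CON (1.47, SE 0.106). Ubash3b, encoding STS-1, rose (0.75, SE 0.081), whereas its relative Ubash3a fell (-0.41). Nras, encoding a Ras protein, rose by 0.49 (SE 0.040), Pak1 by 1.31 (SE 0.143) and the calcium channel gene Orai2 by 0.40 (SE 0.053). Ptprj and Pak1 are also expressed in myeloid cells, and the part of the higher myeloid markers in these rises was not tested.

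**Figure D4:**
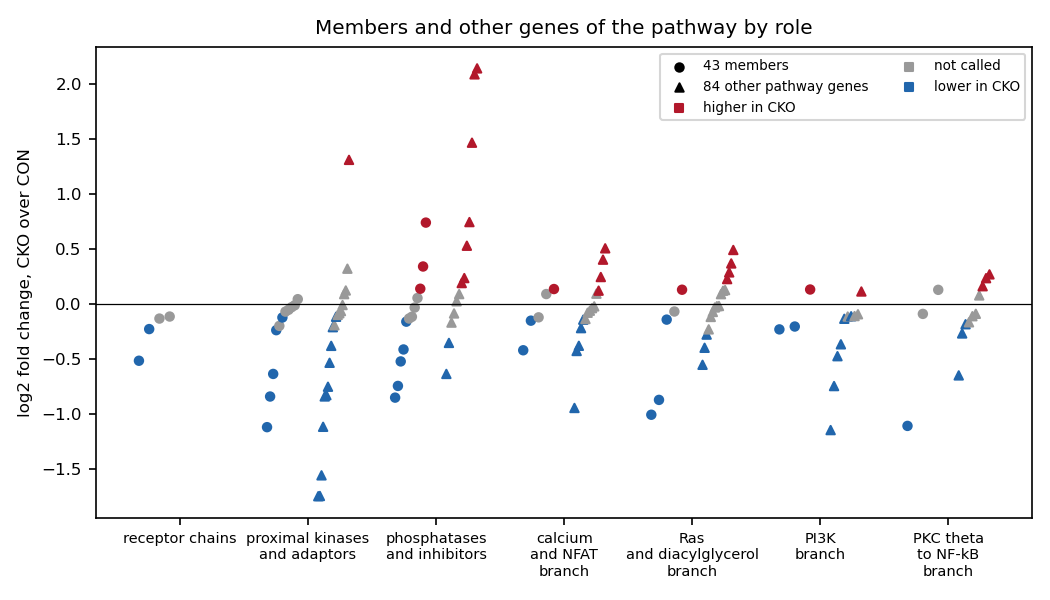
Log2 fold change, CKO over CON, of the 43 members (circles) and the 84 other pathway genes (triangles) by role; colour marks the call at an adjusted p under 0.05. Among proximal kinases and adaptors 5 of 11 members and 11 of 20 other genes were lower, the latter including the T cell markers Cd2, Cd4 and Cd28. Among phosphatases and inhibitors 3 of 12 members and 7 of 13 other genes were higher.

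Some members lie next to each other in the genome. Cd5 (chr19:10717116-10739002, GRCm38, minus strand) and Cd6 (chr19:10789341-10830058, minus strand) are 50.3 kb apart. Within 100 kb of this span, a window chosen after values were seen, 8 of 9 tested genes, Cd5 and Cd6 included, were higher in CKO and 0 lower. Among all genes tested, 21.6% were higher and 20.7% lower. The largest rises were in Slc15a3 (log2 fold change 2.78, SE 0.213), encoding a peptide and histidine transporter, and in Tmem132a (2.46, SE 0.203), whose bodies overlap on opposite strands. Both were low, Slc15a3 at 13.4 ± 1.60 CPM in CKO and 1.88 ± 0.754 CPM in CON. Tmem132a stood at 6.81 ± 0.289 CPM in CKO and 1.22 ± 0.332 CPM in CON. The part of other cells in the rises around Cd5 and Cd6 was not tested. The next largest rise was in Tmem109, with 183 ± 6.05 CPM in CKO and 96.0 ± 6.04 CPM in CON (0.93, SE 0.052). Cd3g (chr9:44969572-44980431, minus strand) and Cd3d (chr9:44981786-44987339, plus strand) start 1354 bases apart and are read away from each other, and Cd3e (chr9:44998740-45009627, minus strand) follows. Within 100 kb of that span, 4 of 11 tested genes were lower (20.7% of all genes tested), Cd3d, Ube4a, Kmt2a and Mpzl3. There 1 was higher (21.6% of all genes tested), Jaml, at 8.25 ± 0.937 CPM in CKO and 3.13 ± 0.751 CPM in CON. Across the 43 members, the log2 fold change had a Spearman correlation of -0.266 with the length of the gene body (-0.0711 over 13353 tested genes), given as a description since genes are not independent.

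**Figure D5:**
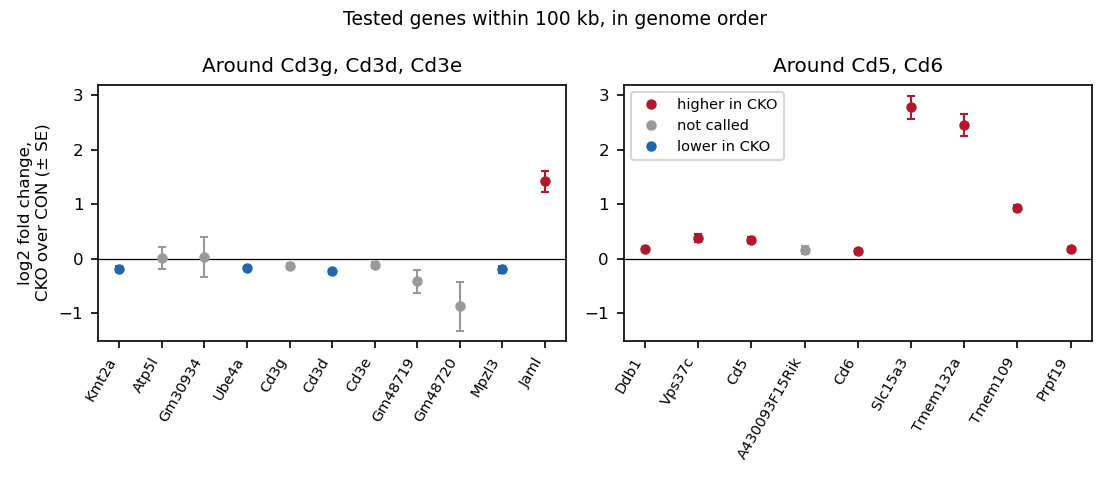
Log2 fold change with SE, CKO over CON, of all tested genes within 100 kb of Cd3g, Cd3d and Cd3e (left) and of Cd5 and Cd6 (right), in genome order; colour marks the call. On the right 8 of 9 genes are called higher, and on the left 4 of 11 are called lower and 1, Jaml, higher. Of all genes tested, 20.7% were lower and 21.6% higher.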

How the data were processed

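The authors deposited 1 table of raw read counts per gene and library. Per the submitters' processing notes, STAR 2.7.3a, HTSeq 0.12.4 and the mm10 build were used; which annotation and strand setting were chosen is not given in the sources used here. HTSeq's 5 lines that name no gene (15.85% to 16.18% of reads in CKO, 17.63% to 17.98% in CON) were left out of library sizes and tests. No pair of libraries of a group agreed within sampling noise (chi-square per degree of freedom 2.09 to 6.90).

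Symbols, positions and exon lengths came from GENCODE M21 (GRCm38; 55141 of 55401 identifiers matched). edgeR 4.0.16 (R 4.3.3) was used with filterByExpr, TMM scaling and a quasi-likelihood test of CKO against CON over 13364 genes, with Benjamini-Hochberg adjustment over all of them; a fold change of 1.5 was tested with glmTreat. Each SE is the coefficient over the root of its F statistic. CPM uses TMM-scaled library sizes; TPM was computed from union exon length. Pair ratios add 0.5 reads to each count. At these depths each member had 205 or more reads per library, and values carry counting error as well as spread between libraries. The method was tested on simulated counts. Members and lists were chosen with earlier results of these data known, and lists, tests and the naming rule were then fixed: each member is accounted for, with values per library for receptor chains, the most abundant member of each role, and called members past 1.5-fold, and further members were given in full after values were seen. Of the other pathway genes, up to 6 called of smallest p in each direction were named, apart from a withheld gene that is not reported here. Alternatives were RLE and upper-quartile scaling, no filter, DESeq2 1.42.0, limma 3.58.1 (voom), a block on replicate number, leaving out immunoglobulin, receptor segment, globin and mitochondrial genes, leaving out each library, a fold threshold of 1.2, and a prior of 2 reads in the pair ratios.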

Additional observations from a re-analysis of the deposited data

How the results depend on the processing

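Of the 26 members called, 20 (18 lower, 2 higher) kept their call in all 13 alternatives, and Akt1, Cd6, Dgkz, Grb2, Lat and Nfatc1 did not. No call reversed. The number of lower members ranged from 19 to 24 when single libraries were left out, and that of higher members from 2 to 5, against 20 and 6 with all libraries. The number of members past a fold change of 1.5 was 7, ranged from 6 to 7 without single libraries, and was 13 against a fold of 1.2. Members called under the other alternatives numbered 20 to 23 lower and 4 to 7 higher. Same-numbered CKO and CON libraries did not deviate together (correlations 0.026, -0.00984 and 0.024), so replicate numbers do not pair them; with the number as a block, 22 members were lower and 7 higher (Cblb and Nck1 gained as lower, Malt1 as higher), and 2702 of all genes were lower and 2861 higher. The other counts stayed within 1.5 times their value. Called differences as small as 0.12 on the log2 scale rest on a common biological coefficient of variation of 6.27% between 3 libraries a group, and small differences in members not called cannot be read as absent.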
